A study of Homo sapiens with 26 samples.

Results

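The nucleolar genes described here are 60 named factors of ribosome biogenesis, chosen by gene symbol. Of these, 52 had a probe set among the 17687 genes measured, 1 probe set each, and NOP56, DKC1, WDR43, BOP1, PPAN, EBNA1BP2, DDX18 and GNL3 were not analysed here. The 52 genes were sorted by role into 9 of RNA polymerase I and rRNA gene transcription, 7 of the snoRNP core and its assembly, 20 of the small-subunit processome and 16 of large-subunit assembly.

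RNA of 3 established human lung cancer cell lines was measured on 26 single-colour, biotin-labelled arrays. H1975 (NCI-H1975, labelled lung adenocarcinoma) had 5 Omomyc and 4 PBS arrays, A549 (labelled lung carcinoma) had 3 Omomyc and 4 PBS arrays, and H1299 (NCI-H1299, labelled lung carcinoma) had 5 Omomyc and 5 PBS arrays. Omomyc, a dominant-negative miniprotein made from the MYC dimerization domain, was added at 12.8 µM one night after plating, and PBS (phosphate-buffered saline) was the vehicle. All cells grew in RPMI1640 with glutamine and serum, the sources used here do not state the exposure time, and PBS was the only control, so an effect particular to Omomyc cannot be told apart from one of any added protein.

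The nucleolus is where RNA polymerase I transcribes the long precursor of ribosomal RNA. Small nucleolar ribonucleoproteins (snoRNPs) guide its methylation and pseudouridylation, the small-subunit processome folds and cleaves its 18S part, and a separate chain of factors assembles the large subunit around the 5.8S, 28S and 5S RNAs. MYC is known to raise the transcription of many of these genes through the E-box, the DNA letters that a MYC and MAX dimer reads, and Omomyc is known to compete for that site.

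The arrays fell into 3 sets of 9, 10 and 7 by the shape of their whole value distributions, called runs here. No label names the runs. Run membership accounted for 97.3% of the leading residual component, which held 33.0% of the residual variance. The runs were drawn from these same values, so that share is no separate evidence for them. A549 had no Omomyc array in run 3. Counts from a fit blocked on run stand beside the others. The labels call the arrays of a group biological replicas, and where cultures were not separate the p-values measure only the spread between arrays. The highest mean of the 23 background probe sets was 6.69. The epithelial keratin gene KRT8 averaged at least 13.69 in every group, whereas EPCAM averaged 3.76 in Omomyc and 3.92 in PBS arrays of H1299, under that background mean. The adhesion gene CDH1 was under it in H1975 (3.73 with Omomyc, 3.93 with PBS) and in H1299 (3.11 and 3.33), and the mesenchymal marker VIM averaged at least 16.05 in the groups of these lines, so their epithelial markers were only partly present. AKR1B10, known to be high in A549, averaged 16.75 in Omomyc and 17.10 in PBS arrays of A549 and at most 3.75 in the groups of the other lines. The leukocyte markers PTPRC and CD3E and the endothelial marker PECAM1 averaged at most 3.35 in any group, and the fibroblast marker COL1A1 averaged 8.30 in Omomyc and 9.44 in PBS arrays of H1975. The part of RNA quality or cell number in the results was not tested, and fewer cells of a state cannot be told apart from less RNA per cell.

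Promoter windows of 300 bases, 250 before and 50 after the RefSeq start (GRCh38.p14), were at hand for 48 of the 60 genes. The E-box CACGTG, which reads the same on both strands, stood in 21 of them, or 43.8%. It stood in 10.8% of the windows of all measured genes, in 8.77% of all genes of the promoter table, and in 24.8% of the wider list of ribosome biogenesis genes described below. By role, 2 of 7 windows of the RNA polymerase I group, 3 of 6 of the snoRNP group, 10 of 19 of the small-subunit group and 6 of 16 of the large-subunit group held it. Median GC content was 61.7% in the windows of the nucleolar genes and 63% in those of all measured genes. Of the 24 E-boxes in the nucleolar windows, 20 (83.3%) lay within 50 bases of the start, against 37.3% of the 1853 E-boxes in the windows of all measured genes. No test was made of these shares.

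The E-box stretches of the nucleolar genes that changed with Omomyc in a line are shown 5′ to 3′ on the strand of the gene, with the E-box in capitals, because these are the letters that MYC and MAX read. Each covers 30 bases of GRCh38.p14.
DDX21 (chr10:68956604-68956633, plus strand, E-box at -31): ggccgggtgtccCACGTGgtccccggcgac
UTP20 (chr12:101280083-101280112, plus strand, E-box at -10): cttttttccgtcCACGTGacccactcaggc
NAT10 (chr11:34105602-34105631, plus strand, E-box at -15): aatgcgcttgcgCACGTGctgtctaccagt
NOL6 (chr9:33473894-33473923, minus strand, E-box at 14): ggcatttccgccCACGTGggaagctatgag
NOC3L (chr10:94362903-94362932, minus strand, E-box at 20): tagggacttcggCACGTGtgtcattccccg
GAR1 (chr4:109815781-109815810, plus strand, E-box at 32): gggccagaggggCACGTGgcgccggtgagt
UTP14A (chrX:129905914-129905943, plus strand, E-box at -241): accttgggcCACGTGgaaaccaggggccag

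Positions count from the gene start, negative before it. In 6 of these 7 genes the E-box lay within 50 bases of the start, and UTP14A held it near the far end of its window. POLR1A and NIP7, which were lower with Omomyc in H1975 and in H1299, held no CACGTG in the window. The 60 bases before their starts are shown in lower case for comparison.
POLR1A (chr2:86105887-86105946, minus strand): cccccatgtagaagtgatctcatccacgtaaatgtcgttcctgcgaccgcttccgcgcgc
NIP7 (chr16:69339712-69339771, plus strand): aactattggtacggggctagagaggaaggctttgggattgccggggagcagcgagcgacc

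Of the 13 genes lower in H1299, 5 of the 9 with a window held the E-box, and of the 39 measured genes not called there, 13 of 33 did. Among the 7 genes lower in H1975, 3 of 6 windows held it. Other measured genes held the E-box within 50 bases of the start and did not pass the threshold in any line. They were BYSL, FBL, IMP4, MRTO4, MYBBP1A, NOP10, NOP2, PES1, PNO1, RRP9 and UTP4. Of these, BYSL, MRTO4, MYBBP1A and PNO1 passed as lower in H1299 with run blocked, and NOP2 and RRP9 had group means under 6.69.

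**Figure D1:**
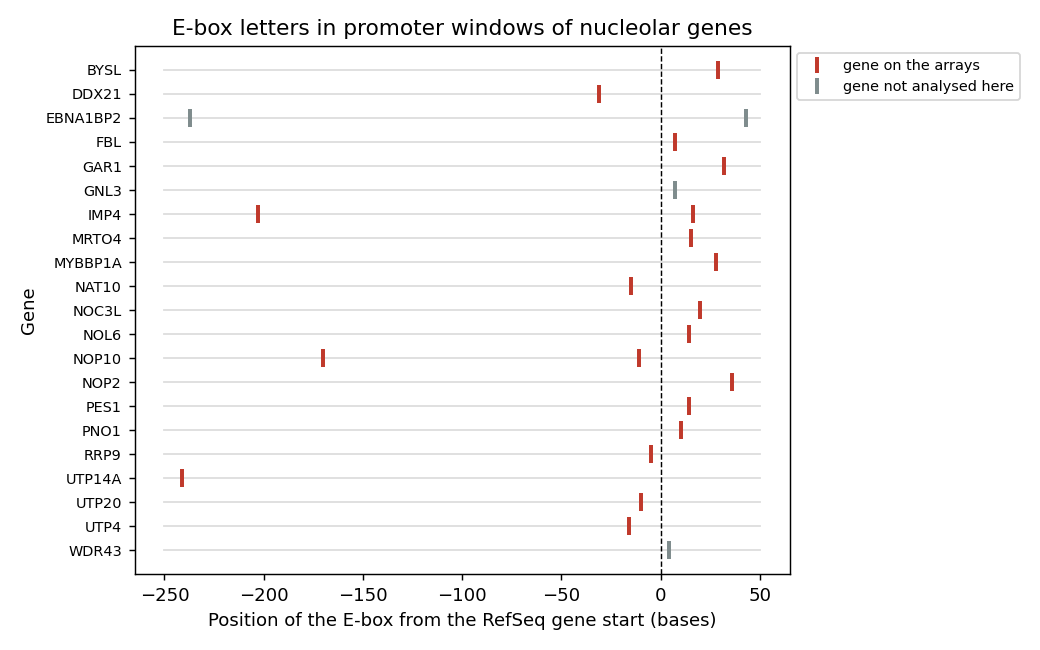
Position of each E-box in the promoter windows, in bases from the RefSeq gene start (dashed line), 1 row for each of the 21 genes that hold one; grey lines span the window. The marks cluster about the start: 20 of 24 lie within 50 bases of it, and UTP14A is among the exceptions at -241.

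Every change is a difference of group means on the log2 scale (Omomyc minus PBS), followed by ± its standard error from limma. Adjusted p is Benjamini-Hochberg over all 17687 genes, and a gene is called when it is under 0.05. In H1299, genes of each of the 4 roles were among those lower with Omomyc: 13 of 52 genes (25%) fell and 0 rose, where 4.52% of all genes fell and 4.35% rose. The median change of the 52 genes was -0.43, that of all genes 0.00, and 48 of the 52 were below 0, against 49.8% of all genes. With run blocked 22 fell and 0 rose, where 8.17% of all genes fell and 7.73% rose, and the medians within runs 1, 2 and 3 were -0.57, -0.55 and -0.48. The Omomyc and PBS arrays did not overlap, with Omomyc lower, for 11 of 52 genes (21.2%), against 4.09% of all genes, and with Omomyc higher for 0 (3.91%). In H1975 fewer genes were called: 7 genes (13.5%) fell and 1 rose, where 6.28% of all genes fell and 5.57% rose. With run blocked 10 fell and 2 rose there (9.85% and 9.37% of all genes), which added falls of UBTF, IMP3 and FTSJ3 and a rise of DDX21. The arrays were apart for 6 genes with Omomyc lower and 1 with Omomyc higher (5.35% and 5.18% of all genes). The median there was -0.07, and its sign was not stable, at 0.042 with each array centred on its median and 0.031 without PBS replicate 2. In A549 0 genes passed the limma threshold, where 0.277% of all genes fell and 0.916% rose. The A549 median was -0.08, against 0.04 for all genes (-0.155 and -0.007 with run blocked). Its sign was not stable either, at 0.023 without PBS replicate 3. At an unadjusted p under 0.05, 3 of the 52 were lower and 1 higher in A549, against 3.19% and 5.53% of all genes. The A549 arrays were apart for 6 genes with Omomyc lower and 2 with Omomyc higher (3.6% and 5.79% of all genes). The median level of all genes was 6.48, under 6.69, the highest mean of a background probe set, so these shares include many dim genes. Without genes under the 30th percentile of level, 2181 of 12381 genes were called in either direction in H1975, where 7 nucleolar genes fell and 1 rose. That filter left 210 called in either direction in A549, with 0 nucleolar genes, and 1699 in H1299, where 16 nucleolar genes fell and 0 rose. Calls by direction were not counted over the filtered genes, so these totals give no background for falls alone. The filter also kept genes under 6.69, because the median level itself lay under it.

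**Figure D2:**
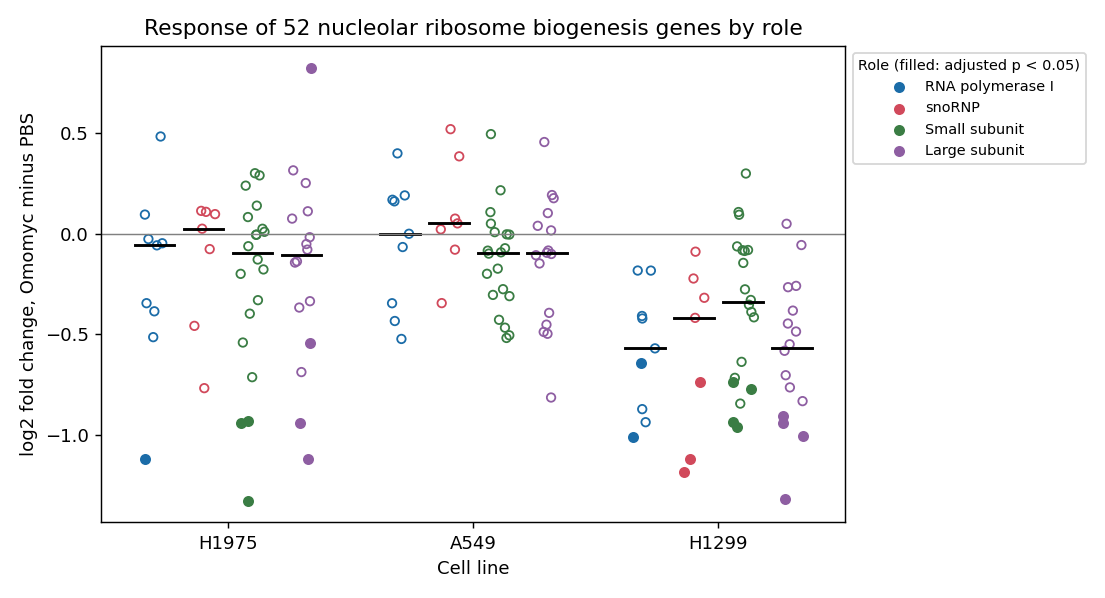
Log2 fold change (Omomyc minus PBS, y axis) of the 52 genes in the 3 lines (x axis), coloured by role; filled points passed an adjusted p of 0.05 and bars are medians of a role. In H1299 the role medians lie between -0.57 and -0.34, while in A549 no point is filled.

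Across lines, 17 of the 52 genes passed in at least 1 line and 35 in none. POLR1A, RRS1, UTP14A and NIP7 fell in H1975 and in H1299, and 0 genes were called in opposite directions in 2 lines. The change was below 0 in all 3 lines for 21 genes and above 0 in all 3 for 0. These counts across lines were not made over all genes, so no background stands beside them. Line by line, 65.4%, 61.5% and 92.3% of the 52 genes were below 0 in H1975, A549 and H1299. Of all genes, 49.5%, 44.8% and 49.8% were. The lines share no arrays in these comparisons.

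Among the RNA polymerase I genes, POLR1A, which encodes the largest catalytic subunit, fell in H1975 and H1299. In H1975 its log2 signal was 8.98, 8.99, 9.14, 9.45 and 8.28 on the Omomyc arrays, against 9.88, 10.18, 10.19 and 10.10 on the PBS arrays, with no overlap. The change was -1.12 ± 0.20 (adjusted p = 0.000303). In H1299 it was 8.08, 7.90, 8.30, 7.68 and 7.71 with Omomyc, against 8.96, 9.25, 9.004, 8.57 and 8.95 with PBS, again apart, and the change was -1.01 ± 0.19 (adjusted p = 0.000706). These are levels of 0.461 and 0.496 times PBS. In A549 the values were 10.15, 10.34 and 10.56 with Omomyc, against 10.22, 9.98, 10.27 and 10.16 with PBS, and the ranges overlapped (0.19 ± 0.23). The response differed between the lines in limma's moderated F test (adjusted p = 0.00921), by -1.31 ± 0.31 for H1975 minus A549 (adjusted p = 0.0106) and by 1.201 ± 0.30 for A549 minus H1299 (adjusted p = 0.027).

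DDX21, an RNA helicase that links rRNA transcription with processing, changed with a different sign in H1975 and H1299. In H1299 it was 12.18, 12.47, 12.56, 12.46 and 12.05 with Omomyc, against 12.90, 12.90, 13.06, 12.97 and 13.09 with PBS. The groups did not overlap and DDX21 fell by 0.64 there (SE 0.17, adjusted p = 0.0159). In H1975 it was 13.42, 13.48, 13.64, 13.68 and 13.01 with Omomyc, against 12.54, 13.34, 13.07 and 12.90 with PBS, where only Omomyc replicate 5 lay inside the PBS range. That change was 0.48 ± 0.18 and did not pass (adjusted p = 0.0933), though it did with run blocked (adjusted p = 0.0241). In A549 the values were 12.99, 12.88 and 12.97 with Omomyc, against 12.999, 13.30, 13.44 and 13.44 with PBS (-0.35 ± 0.21, adjusted p = 0.748). The difference between lines passed the F test (adjusted p = 0.0107), and H1975 minus H1299 was 1.12 ± 0.25 (adjusted p = 0.00525). Without H1299 Omomyc replicate 5 the call of DDX21 in H1299 was lost (adjusted p = 0.0553).

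The other 7 genes of this role did not pass in any line. In H1299 their changes ran between -0.94 for POLR1B, the other large catalytic subunit, and -0.18 for POLR1C, a subunit shared with RNA polymerase III, and all 9 genes of the role were below 0. With run blocked POLR1B (adjusted p = 0.00468), TCOF1 (0.00239) and MYBBP1A (0.0177) passed in H1299 as well. TCOF1 encodes treacle, a nucleolar factor of rRNA gene transcription. UBTF, the factor that binds the rRNA gene promoter and body, was at -0.51 ± 0.23 in H1975 (adjusted p = 0.175, and 0.0416 with run blocked), at 0.40 ± 0.26 in A549 and at -0.41 ± 0.22 in H1299. NCL, the gene of nucleolin, was at -0.35 ± 0.30, 0.17 ± 0.34 and -0.42 ± 0.28 in H1975, A549 and H1299.

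Of the 7 snoRNP genes, 3 fell in H1299 and 0 changed in H1975 or A549. NOP58, a core protein of the box C/D snoRNPs that guide methylation, was 11.93, 12.04, 11.93, 11.56 and 11.69 on the H1299 Omomyc arrays, against 12.91, 12.55, 13.07, 13.20 and 12.997 on the PBS arrays. Every Omomyc array lay below every PBS array, and the change of -1.12 ± 0.19 had the smallest p of the nucleolar genes in this line (adjusted p = 0.000257). In H1975 it was 11.64, 11.98, 12.03, 12.33 and 11.39 with Omomyc, against 12.30, 12.43, 12.70 and 11.88 with PBS (-0.46 ± 0.20, adjusted p = 0.172), and the groups overlapped. In A549 NOP58 was 12.57, 12.60 and 12.88 with Omomyc, against 12.61, 12.59, 12.83 and 13.02 with PBS (-0.08 ± 0.23).

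GAR1, of the H/ACA snoRNPs that guide pseudouridylation, fell by 1.18 in H1299 (SE 0.36, adjusted p = 0.0355), and NOLC1, a snoRNP chaperone, fell by 0.74 (SE 0.20, adjusted p = 0.0144). The call of GAR1 was lost without H1299 PBS replicate 2 (adjusted p = 0.0732), 3 (0.0791) or 5 (0.0868), or without Omomyc replicate 1 (0.103), 4 (0.0805) or 5 (0.114). That of NOLC1 was lost without PBS replicate 1 (0.0526). FBL, the methyltransferase of the box C/D particle, was at -0.22 ± 0.27 in H1299, and the H/ACA genes NHP2 and NOP10 were at -0.42 ± 0.25 and -0.32 ± 0.27. NAF1, an H/ACA assembly factor, was at -0.09 ± 0.25. All 7 were below 0 in H1299, 3 of 7 in H1975 and 2 of 7 in A549.

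Small-subunit factors fell in H1299 (4 of 20) and in H1975 (3 of 20), and 0 rose in either. UTP14A, needed for early cleavage of the rRNA precursor, fell in both. In H1975 its signal was 9.12, 9.005, 9.37, 9.34 and 9.20 with Omomyc, against 10.39, 10.40, 9.95 and 9.82 with PBS. In H1299 it was 9.17, 9.43, 9.77, 9.22 and 9.33 with Omomyc, against 10.23, 10.22, 10.18, 9.98 and 10.15 with PBS. Neither line had overlapping groups, and the changes were -0.93 ± 0.19 (adjusted p = 0.00114) and -0.77 ± 0.18 (adjusted p = 0.00505). With replicate and run blocked together the H1975 call was lost (0.0612). In A549 UTP14A was 10.46, 10.55 and 11.06 with Omomyc, against 11.21, 11.23, 11.02 and 10.55 with PBS (-0.31 ± 0.22, adjusted p = 0.824).

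NOL10 fell in H1299, with 10.03, 10.37, 9.85, 9.98 and 9.76 on the Omomyc arrays, against 10.69, 10.76, 10.55, 10.59 and 11.06 on the PBS arrays (-0.73 ± 0.16, adjusted p = 0.00314). The groups were apart in H1299. In A549 NOL10 was 11.53, 11.52 and 11.46 with Omomyc, against 11.86, 11.83, 11.83 and 11.71 with PBS, which were apart too, at a change of -0.30 ± 0.20 (adjusted p = 0.787). In H1975 it was 10.45, 10.58, 11.10, 10.57 and 10.46 with Omomyc, against 10.93, 11.06, 11.04 and 10.82 with PBS (-0.33 ± 0.17, adjusted p = 0.268), and Omomyc replicate 3 lay above all 4 PBS arrays. WDR3, a WD-repeat component of the processome, fell in H1299 by 0.96 (SE 0.21, adjusted p = 0.00344), and NAT10, which acetylates 18S rRNA, fell by 0.93 (SE 0.24, adjusted p = 0.0101). With run blocked BYSL (adjusted p = 0.0233), PNO1 (0.0228) and NOC4L (0.0111) passed in H1299 as well.

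In H1975, UTP20, a large scaffold of the processome, fell by 1.32 (SE 0.37, adjusted p = 0.0166). NOL6, another processome subunit, fell there too: it was 7.22, 7.38, 7.72, 8.02 and 7.21 with Omomyc, against 8.46, 8.75, 8.20 and 8.39 with PBS (-0.94 ± 0.28, adjusted p = 0.0232). The NOL6 groups did not overlap. The call of UTP20 was lost without PBS replicate 2 (adjusted p = 0.0871) or 3 (0.061) or Omomyc replicate 1 (0.0646), or in a fit of H1975 alone (0.0766), and its change was 0.028 in run 3, which held 1 array of each treatment. That of NOL6 was lost without PBS replicate 2 (0.0863) or Omomyc replicate 1 (0.0623), 2 (0.0505) or 5 (0.0566), with each array centred on its median (0.0705) and with replicate and run blocked together (0.135). In H1299 UTP20 and NOL6 were at -0.42 ± 0.35 and -0.28 ± 0.26, and the F test of the response between lines did not call either. IMP3, also of this role, was at -0.71 ± 0.28 in H1975 (adjusted p = 0.115, and 0.0157 with run blocked). It was at 0.49 ± 0.32 in A549, where its Omomyc arrays lay above its PBS arrays, and at 0.11 ± 0.27 in H1299.

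Large-subunit factors held the steepest fall of the nucleolar genes in H1299 and the only rise called in H1975 without blocks. DDX21 also passed as a rise there with run blocked (adjusted p = 0.0241) and with quantile normalization (0.0237). RRS1, which with RPF2 brings the 5S RNA particle into the pre-60S subunit, fell in both lines. In H1299 it was 8.96, 9.03, 9.15, 8.57 and 7.94 with Omomyc, against 9.91, 10.17, 10.26, 9.87 and 10.02 with PBS (-1.31 ± 0.25, adjusted p = 0.00061). In H1975 it was 7.27, 7.37, 7.74, 7.81 and 7.13 with Omomyc, against 8.92, 9.11, 8.07 and 8.24 with PBS (-1.12 ± 0.26, adjusted p = 0.00384). Both lines had their groups apart, at 0.402 and 0.461 times the PBS level, and the H1975 call was lost with replicate and run blocked together (0.136). In A549 RRS1 was 10.13, 10.05 and 10.48 with Omomyc, against 10.998, 10.54, 9.95 and 9.97 with PBS, with overlap (-0.15 ± 0.30).

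RPF2, the partner of RRS1, rose in H1975: it was 12.86, 13.06, 13.62, 13.44 and 13.05 with Omomyc, against 12.44, 12.82, 12.51 and 11.77 with PBS (0.82 ± 0.23, adjusted p = 0.0167). All 5 Omomyc arrays lay above the 4 PBS arrays, and the level was 1.77 times that of PBS. In H1299 it was 14.36, 14.61, 14.33, 14.18 and 13.99 with Omomyc, against 15.16, 14.62, 14.74, 14.56 and 14.30 with PBS (-0.38 ± 0.22), and in A549 13.01, 12.97 and 13.65 with Omomyc, against 13.75, 13.02, 13.28 and 13.16 with PBS (-0.10 ± 0.26). The response of RPF2 differed between lines (F test adjusted p = 0.0335), H1975 minus H1299 being 1.21 ± 0.32 (adjusted p = 0.0195). The rise was lost without H1975 PBS replicate 4 (0.62, adjusted p = 0.101), with array weights (0.0517), in a fit of H1975 alone (0.0622) and with replicate and run blocked together (0.151). The F test call was lost with array weights (0.0506), without PBS replicate 4 (0.104), without H1975 PBS replicate 1 (0.0518) or Omomyc replicate 3 (0.0683) or 4 (0.0642), and without H1299 PBS replicate 1 (0.0572) or 3 (0.0505) or Omomyc replicate 4 (0.0517) or 5 (0.0572).

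BRIX1, of the same protein family as RPF2, fell in H1299 with 11.29, 11.06, 11.55, 12.18 and 11.18 on the Omomyc arrays, against 12.80, 12.08, 12.62, 12.27 and 12.50 on the PBS arrays (-1.002 ± 0.20, adjusted p = 0.00126). Omomyc replicate 4 was the only Omomyc array within the PBS range. In H1975 it was 13.48, 13.22, 13.93, 13.48 and 13.09 with Omomyc, against 13.33, 13.50, 13.46 and 13.17 with PBS, and in A549 12.32, 12.26 and 12.54 with Omomyc, against 12.29, 12.26, 12.30 and 12.50 with PBS, with changes of 0.07 ± 0.21 and 0.04 ± 0.24. The difference between lines passed the F test (adjusted p = 0.0232), and H1975 minus H1299 was 1.08 ± 0.29 (adjusted p = 0.0247). The F test call was lost without H1299 PBS replicate 1 (0.0535) or Omomyc replicate 2 (0.0519) or 5 (0.0513), and with each array centred on its median (0.0643).

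NIP7, a factor of pre-rRNA processing, had every Omomyc array below every PBS array in each of the 3 lines. The share of all genes that matched NIP7 in this was not counted. In H1299 it was 11.91, 12.34, 12.31, 12.003 and 11.97 with Omomyc, against 12.75, 12.89, 13.06, 13.20 and 13.15 with PBS (-0.90 ± 0.17, adjusted p = 0.000496). In H1975 it was 12.14, 11.74, 12.21, 12.01 and 11.44 with Omomyc, against 12.42, 12.54, 12.35 and 12.50 with PBS (-0.54 ± 0.18, adjusted p = 0.0399). In A549 it was 12.87, 12.98 and 12.92 with Omomyc, against 13.50, 13.17, 13.40 and 13.41 with PBS, and this change of -0.45 ± 0.20 did not pass (adjusted p = 0.471). The H1975 call was lost without PBS replicate 1 (0.0696), 2 (0.106), 3 (0.0555) or 4 (0.0876) or Omomyc replicate 2 (0.095) or 5 (0.124), with each array centred on its median (0.227), in a fit of H1975 alone (0.167), with the replicate block (0.167) and with replicate and run blocked together (0.73).

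NOC3L, of large-subunit assembly and export, fell by 0.94 in H1299 (SE 0.24, adjusted p = 0.01) and was at -0.81 ± 0.29 in A549 (adjusted p = 0.25). It was the 1 gene of the 52 that passed in A549 with run blocked (adjusted p = 0.0161), where 1.13% of all genes fell and 1.71% rose. GRWD1, a WD-repeat factor of ribosome assembly, fell by 0.94 in H1975 (SE 0.23, adjusted p = 0.00513). With run blocked NOP16 (adjusted p = 0.00287), NOC2L (0.0082) and MRTO4 (0.00986) passed in H1299 as well. PES1 and WDR12, partners in a complex needed for 28S maturation, were at -0.55 ± 0.23 and -0.49 ± 0.30 in H1299 and did not pass. NPM1, the gene of nucleophosmin, was at 0.31 ± 0.18 in H1975, 0.45 ± 0.21 in A549 and -0.06 ± 0.17 in H1299. FTSJ3, an rRNA methyltransferase gene, was at -0.69 ± 0.30 in H1975 (adjusted p = 0.164, and 0.0105 with run blocked). All group means of FTSJ3 lay under 6.69, the highest mean of a background probe set. NOP2, RRP9, POLR1B and NOL6 had at least 1 group mean under it. This limits how far the changes of these genes and of FTSJ3 can be read.

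**Figure D3:**
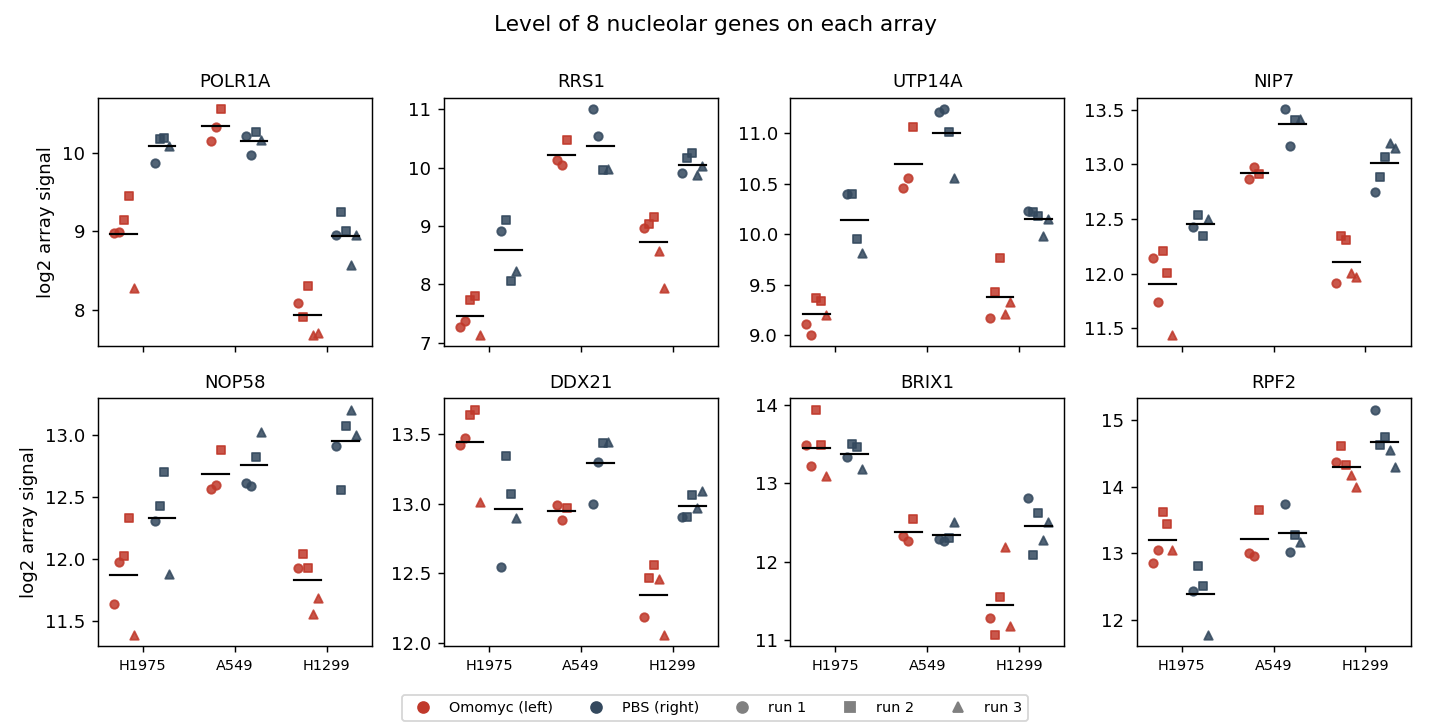
Log2 array signal (y axis) of 8 genes on each of the 26 arrays, Omomyc in red left of PBS in dark blue for each line; the marker shape gives the run and bars are group means. POLR1A, RRS1, UTP14A and NIP7 lie apart by treatment in H1975 and H1299, DDX21 is low with Omomyc in H1299, and RPF2 is high with Omomyc in H1975.

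Over the 52 genes, 4 passed the F test of a response difference between lines, or 7.69%, where 8.18% of all genes did: POLR1A, DDX21, BRIX1 and RPF2. With run blocked 12 passed (23.1%, against 17.4% of all genes), adding NOP58, GAR1, NOLC1, WDR3, TCOF1, IMP3, NOC2L and NOC3L. The pairwise contrast called 3 genes higher and 0 lower for H1975 minus H1299 (2.61% and 3.09% of all genes). It called 0 higher and 1 lower for H1975 minus A549 (1.92% and 2.7%), and 1 higher and 0 lower for A549 minus H1299 (1.4% and 1.07%). Without the block, the share of the 52 genes was near that of all genes.

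In PBS-treated cells, 39 of the 52 genes (75%) differed between the 3 lines in the F test, where 56.1% of all genes did (42 genes and 62.4% with run blocked). H1975 minus A549 called 6 genes higher and 16 lower (20.3% and 18% of all genes), and H1975 minus H1299 called 7 higher and 19 lower (21.2% and 20.8%). A549 minus H1299 called 15 higher and 14 lower (19% and 22.5%). Of the 39 genes, 19 had their lowest PBS mean in H1975, 12 in H1299 and 8 in A549. These contrasts share the PBS arrays with the responses above, and the shares of all genes again include the dim ones.

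The smallest F test p was that of FBL, at 11.12, 10.78, 10.11 and 10.16 on the H1975 PBS arrays, 13.70, 13.46, 13.84 and 12.80 on those of A549, and 14.33, 14.37, 14.80, 14.37 and 14.25 on those of H1299. The 3 lines did not overlap, and H1975 minus H1299 was -3.88 (adjusted p = 1.86e-12). POLR1E, a subunit gene of RNA polymerase I, was 10.65, 10.67, 10.91 and 10.37 in H1975, 9.85, 9.96, 9.89 and 9.73 in A549 and 11.95, 12.37, 12.41, 11.70 and 12.04 in H1299, so H1299 was the highest and A549 the lowest (A549 minus H1299 -2.24, adjusted p = 9.08e-10). RPF2, with the PBS values given above, was also highest in H1299 (H1975 minus H1299 -2.29, adjusted p = 1.7e-09). NOL6 ran the other way: it was 8.46, 8.75, 8.20 and 8.39 in H1975, 9.22, 9.25, 9.58 and 9.53 in A549 and 6.13, 6.37, 6.85, 7.15 and 7.21 in H1299, the last near background (A549 minus H1299 2.66, adjusted p = 3.51e-09).

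POLR1A stood at a PBS mean of 10.09 in H1975, 10.16 in A549 and 8.95 in H1299, and only the last differed from the others (adjusted p = 2.82e-05 against H1975 and 1.23e-05 against A549). By role, 9 of 20 small-subunit genes were higher and 3 lower in A549 than in H1299 (19% and 22.5% of all genes), while 0 of the 7 snoRNP genes were higher and 4 lower in H1975 than in H1299 (21.2% and 20.8%), counts too small to set a role apart. PNO1, a late factor of the small subunit, was lower in H1975 than in A549 (-2.896, adjusted p = 2.01e-07), and PES1 was higher in H1975 than in A549 (1.53, adjusted p = 1.22e-05).

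**Figure D4:**
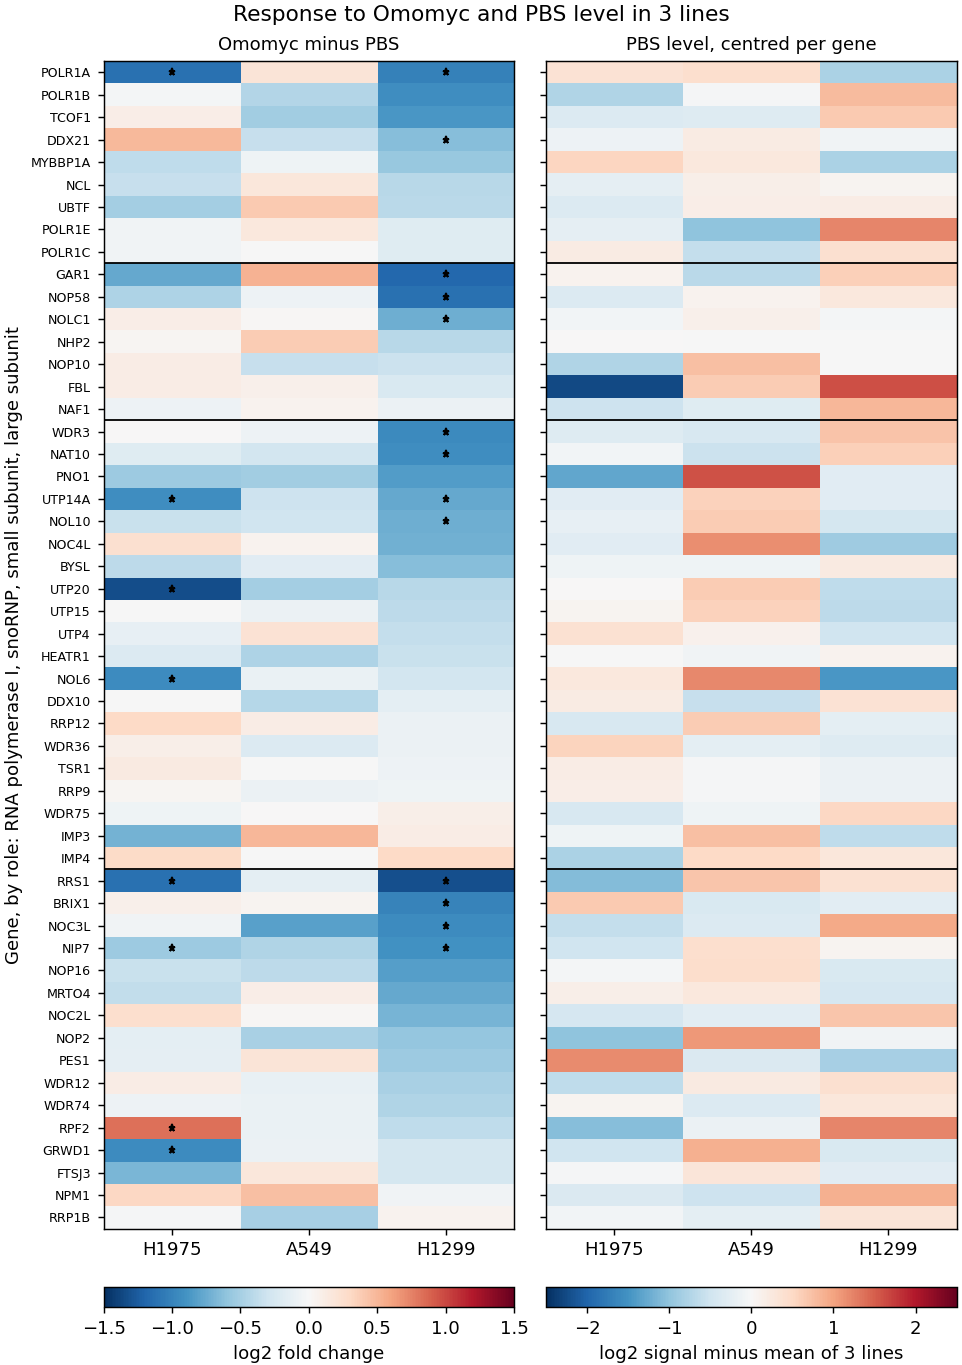
The 52 genes (rows, grouped by role) in the 3 lines: the left panel gives the log2 fold change, Omomyc minus PBS, with a star for an adjusted p under 0.05, and the right panel the PBS mean less the mean of the 3 lines. The H1299 column of the left panel is blue in 48 of 52 rows, and the right panel differs from gene to gene in which line is high.

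A wider list of 112 other ribosome biogenesis genes, 106 of them measured, had 22 lower and 1 higher in H1299 (4.52% and 4.35% of all genes), with a median of -0.42 and 87 of 106 below 0. In H1975 10 were higher and 5 lower (5.57% and 6.28% of all genes, median 0.04), and in A549 0 were higher and 1 lower (0.916% and 0.277% of all genes, median -0.01). In H1299 the falls with the smallest p were those of PDCD11, the RRP5 homologue of the processome (-1.32 ± 0.19, adjusted p = 2.47e-05), and GTPBP4, a GTPase of large-subunit assembly (-1.11 ± 0.19, adjusted p = 0.000272). By role, 11 of 36 small-subunit genes, 7 of 40 large-subunit genes, 2 of 9 snoRNP genes and 2 of 12 exosome genes fell there, while of 9 further RNA polymerase I genes 0 fell and 1 rose. POLR1D, a subunit shared by RNA polymerases I and III, was the 1 gene of the list that rose in H1299 (1.13 ± 0.29, adjusted p = 0.0101), and it rose in H1975 too (1.34 ± 0.31, adjusted p = 0.00312). In H1975 NOB1, the nuclease that forms the 3′ end of 18S rRNA, rose by 1.34 ± 0.18 (adjusted p = 6.6e-06), while the exosome subunit gene EXOSC6 (-1.55 ± 0.28, adjusted p = 0.000232) and NOL9, of large-subunit processing (-0.94 ± 0.20, adjusted p = 0.00142), fell. RRN3, the initiation factor of RNA polymerase I also known as TIF-IA, was the gene that fell in A549 (-1.18 ± 0.30, adjusted p = 0.0495).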

How the data were processed

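The deposited log2 values come, per the submitters' processing notes, from RMA and Partek, with no version given. The sources used here do not say whether arrays were normalized in 1 batch. The values ran between 1.35 and 19.91. Probe sets were named through the platform annotation and Entrez IDs: 17709 had 1 gene symbol, 0 had several and 6642 had none. Where a gene had several probe sets (20 genes), that with the highest mean was used. The genes and lists were chosen with earlier results of these data known.

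limma 3.58.1 in R 4.3.3 fitted 1 coefficient per group to all 26 arrays (20 residual degrees of freedom, 18 with the run). The fit without blocks was tested on simulated data with independent noise for each value and no run effect. That test therefore does not show how the fit behaves with the runs. Runs are clusters of the sorted values of whole arrays (average linkage, 3 clusters). Replicate numbers were checked by the correlation of same-numbered Omomyc and PBS arrays' deviations from their group means: 0.259 to 0.389 for 5 pairs of H1299 and 0.109 to 0.196 for 3 pairs of A549, all over 0.1, and -0.196 to 0.331 for 4 pairs of H1975. All pairs of H1299 and A549 lay in 1 run each, so their correlations cannot tell a true pairing apart from a shared run. In H1975, pairs 1 (0.331) and 3 (0.031) shared a run, and pairs 2 (-0.151) and 4 (-0.196) did not. No array of a group equalled another. Values in every array are given for the called gene with the smallest p of each role and line, the 3 with the smallest p for the difference between lines, and the 4 with the smallest p between PBS groups. Other genes named without a call were chosen after their values were seen. Alternatives were quantile normalization, median centring, a filter on dim genes, the mean of probe sets, trend and robust settings, array weights, blocks for the run and the replicate number, a fit on 1 line or 1 run, an adjusted p under 0.01 and leaving out each array. Promoters are RefSeq's (GRCh38.p14). The number of arrays limits the precision.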

Additional observations from a re-analysis of the deposited data

Results flagged for a closer look

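The response to Omomyc differed between lines for 4 of the 52 genes (7.69%) by limma's moderated F test, where 8.18% of all genes passed, so the count is no more than the background. POLR1A (adjusted p = 0.00921) fell in H1975 and H1299 and was at 0.19 ± 0.23 in A549. DDX21 (adjusted p = 0.0107) and RPF2 (adjusted p = 0.0335) differed between H1975 and H1299. BRIX1 (adjusted p = 0.0232) also differed between H1975 and H1299.

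Single arrays stood far from the rest of their group in 3 of 60 groups of values examined over 12 genes, where chance gives about 5%. NOL10 was 11.10 on H1975 Omomyc replicate 3, with the other 4 Omomyc arrays between 10.45 and 10.58. BRIX1 was 12.50 on A549 PBS replicate 4, with the others between 12.26 and 12.30. FBL was 14.80 on H1299 PBS replicate 3, with the others between 14.25 and 14.37.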

How the results depend on the processing

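The counts of nucleolar genes called were 8 in H1975, 0 in A549, 13 in H1299, 4 for the difference between lines and 39 between PBS groups. With the replicate block they were 8, 0, 19 and 4 for the first 4 of these. Over all genes that block called 2585, 226 and 2239 in H1975, A549 and H1299. In H1299 and A549, whether same-numbered arrays were paired cannot be told apart from a shared run. In H1975 the same-numbered pairs from different runs had negative correlations (-0.151 and -0.196). The replicate block and the run together gave 3, 1 and 22 in H1975, A549 and H1299, where the calls over all genes moved too, to 1245, 304 and 2622, against 2095, 211 and 1569 without blocks. The run alone as a block gave 1 in A549, 22 in H1299 and 12 for the difference (502, 2812 and 3073 of all genes), and quantile normalization gave 1, 20 and 8 (351 and 2292 of all genes in A549 and H1299). An adjusted p under 0.01 left 4 in H1975, 8 in H1299 and 1 for the difference. All-gene counts are not given for this threshold or for the fits without 1 array. They are also not given for the difference with quantile normalization or the replicate block. A fit of H1975 alone called 5, and runs 1, 2 and 3 alone called 3, 1 and 1 in H1975 and 0, 1 and 8 in H1299, from fewer arrays and with fewer calls over all genes (1544 for H1975 alone, 780 to 1047 for its runs, 81 to 1194 for those of H1299). The count between PBS groups stayed within 1.5 times. The H1975 median was -0.338 in run 1, 0.081 in run 2 and -0.352 in run 3, and UTP20 there was 0.028 in run 3; the causes were not tested. Without 1 array, the counts ran between 6 and 8 in H1975, 0 and 0 in A549, 11 and 17 in H1299, and 35 and 38 between PBS groups. That for the difference ran between 2, without H1299 Omomyc replicate 5, and 5. The medians then ran between -0.209 and 0.031 in H1975, -0.216 and 0.023 in A549, and -0.578 and -0.368 in H1299. Centring on the median moved the median of all genes by 0.112 in H1975. Over the 21 responses of single genes that were called, 92 of 496 alternative values lost the call and 1 changed sign. Over 8 that were not called, 8 of 170 gained a call and 9, in 3 of them, changed sign. Signal near background limits FTSJ3, NOP2, RRP9, POLR1B and NOL6.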
